A study of Mus musculus with 2 samples.

Results

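Phosphoinositide 3-kinase (PI3K) pathway genes were examined in a map of H3K79me2, a histone modification found over the transcribed 5′ parts of genes. The 9 genes, taken by name out of 21938 protein-coding genes, encode catalytic subunits (Pik3ca, Pik3cb, Pik3cd, Pik3cg), regulatory subunits (Pik3r1, Pik3r5), the lipid phosphatase SHIP1 (Inpp5d) and the effector kinases Akt1 and Akt2. The ChIP-seq libraries were made from unstimulated bone-marrow-derived macrophages of the C57BL/6J strain, with 10 ng of DNA in each of 2 biological replicates, which form 1 group. Both replicates carry the same donor identifier, the labels give no sex or age, and no label states if the replicates are different animals or different cultures. The deposited files are lists of peaks without read counts, so the depth behind each library is unknown.

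Class I PI3Ks phosphorylate a membrane lipid to give PIP3, which recruits proteins with PIP3-binding domains, Akt among them, to the plasma membrane. A catalytic subunit works with a regulatory one: those of Pik3ca, Pik3cb and Pik3cd pair with the SH2-containing adaptors made by Pik3r1, and that of Pik3cg pairs with the adaptor made by Pik3r5, which couples it to G proteins. Pik3ca and Pik3cb are expressed in most tissues, whereas Pik3cd, Pik3cg and Inpp5d are best known from blood cells, and in macrophages the pathway acts downstream of growth factor, chemokine and Fc receptors in survival, movement and phagocytosis.

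A peak or a run of touching peaks is called a block here, and a marked gene is one with blocks over 200 bp or more of the 3 kb that begin at its outermost annotated 5′ end. The main list is the replicated list, which the authors derived from both replicates; the list called in each replicate alone is given beside it. The replicated list held 15559 peaks over 93.2 Mb. The list of replicate 1 held 22979 peaks over 63.5 Mb, and that of replicate 2 held 31577 peaks over 114.1 Mb. Replicate 2's list was therefore the wider of the 2, and covered bases were higher in replicate 2 in 98.4% of the 5962 coding genes marked in both. Of 10 macrophage marker genes, 9 were marked in the replicated list, and blocks covered 18778 bp of the remaining one, Csf1r, which was marked from an inner annotated start only. None of 20 markers of T cells, B cells, neutrophils and fibroblasts was marked in that list, where all 20 had no covered base; in replicate 2's list Cd4 was marked, with 589 bp.

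The sequences around the starts of these genes fall into CpG-rich and CpG-poor kinds, and a CpG-rich start is one whose flanks of 500 bp each way together reached an observed over expected CpG of 0.6 and 50% GC. The outermost starts of Pik3ca (observed over expected 1.02), Pik3cb (0.89), Akt2 (0.79) and Pik3r1 (0.72) were CpG-rich. Those of Pik3r5 (0.49), Pik3cd (0.45), Pik3cg (0.41), Akt1 (0.33) and Inpp5d (0.28) were not, although the first basic-set coding start of Akt1, 608 bp further in, was CpG-rich at 0.89. Thus 4 of the 9 outermost starts were CpG-rich, against 79.1% of the 6658 marked coding genes and 44.4% of all coding genes.

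The promoters of Pik3ca, Pik3r1, Pik3cg and Inpp5d are printed from RefSeq (GRCm38.p6), because they show both kinds side by side. Each runs from 250 bases before to 50 bases after a RefSeq start, with every CG in capitals. The RefSeq start of Pik3ca lies 606 bp upstream of the outermost start classed above. Its printed promoter therefore lies outside the flanks that were classed as CpG-rich.
Pik3ca, chr3:32396815-32397114, plus strand: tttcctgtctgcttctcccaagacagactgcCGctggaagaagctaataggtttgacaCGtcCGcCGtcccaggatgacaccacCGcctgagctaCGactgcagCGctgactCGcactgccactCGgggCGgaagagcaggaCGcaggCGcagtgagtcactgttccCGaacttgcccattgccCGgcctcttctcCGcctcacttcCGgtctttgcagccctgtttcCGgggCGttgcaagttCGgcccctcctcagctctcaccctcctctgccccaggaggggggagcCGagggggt
Pik3r1, chr13:101768168-101768467, minus strand: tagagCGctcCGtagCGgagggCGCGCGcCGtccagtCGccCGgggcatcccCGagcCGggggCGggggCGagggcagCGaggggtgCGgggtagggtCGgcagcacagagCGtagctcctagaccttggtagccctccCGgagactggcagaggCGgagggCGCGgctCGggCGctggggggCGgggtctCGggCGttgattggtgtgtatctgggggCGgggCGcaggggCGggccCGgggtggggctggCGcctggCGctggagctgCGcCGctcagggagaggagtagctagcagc
Pik3cg, chr12:32208610-32208909, minus strand: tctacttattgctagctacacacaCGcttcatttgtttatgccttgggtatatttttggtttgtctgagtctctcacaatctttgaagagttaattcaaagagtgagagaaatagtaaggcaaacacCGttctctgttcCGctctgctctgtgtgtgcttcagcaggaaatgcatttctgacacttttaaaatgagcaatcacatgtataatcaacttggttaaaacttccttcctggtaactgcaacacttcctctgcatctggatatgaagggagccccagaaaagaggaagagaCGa
Inpp5d, chr1:87620062-87620361, plus strand: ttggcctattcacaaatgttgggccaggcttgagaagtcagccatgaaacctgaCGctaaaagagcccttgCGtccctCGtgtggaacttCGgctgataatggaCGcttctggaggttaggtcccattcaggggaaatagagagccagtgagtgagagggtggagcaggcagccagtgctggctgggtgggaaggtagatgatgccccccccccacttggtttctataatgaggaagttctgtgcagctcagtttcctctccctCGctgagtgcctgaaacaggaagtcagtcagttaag
The Pik3ca and Pik3r1 promoters hold 20 and 34 CG dinucleotides, and those of Pik3cg and Inpp5d hold 4 and 6; the median over 32851 RefSeq promoters was 7. The letters GAGGAA, known from sites of the macrophage factor PU.1, were searched on both strands as a description of the sequence, not as a call of a binding site. They occurred in 2 places in the Pik3cg promoter and in 2 places in that of Inpp5d, and in neither of the Pik3ca and Pik3r1 promoters. They were also missing from the RefSeq promoters of Pik3r5, Pik3cd and Akt1, whose outermost starts are CpG-poor too, and from that of Pik3cb, and they occurred in 1 place in each of 2 inner promoters of Akt2. Of all RefSeq promoters 28.3% held the motif at least in 1 place. No base of the 4 promoters lay under a block of the replicated list.

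All 9 genes were marked in the replicated list, where 30.3% of all coding genes were marked and 37.2% of the 10159 coding genes of at least 20 kb, a length that each of the 9 exceeds. All 9 were also marked in each replicate's own list, against a background of 27.2% of coding genes in replicate 1 and 35.6% in replicate 2, or 33.7% and 42.4% of those of at least 20 kb. In the list that the authors made from the pooled replicates all 9 were marked, against 34.3% of coding genes and 41.1% of the long ones. That list repeats the blocks of the replicated list in these genes, so it could not leave any of the 9 unmarked. Marking in the replicated list and in both replicates' lists was found for the 9 genes and for 27.2% of coding genes, and marking at any annotated start for 32.9%. Blocks of the replicated list covered a median of 55.1% of each gene (range 20.1% to 69.7%), compared with a median of 25.4% over the 3783 marked coding genes of at least 20 kb. The difference from other genes was not tested, since the 9 genes were chosen by name.

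**Figure D1:**
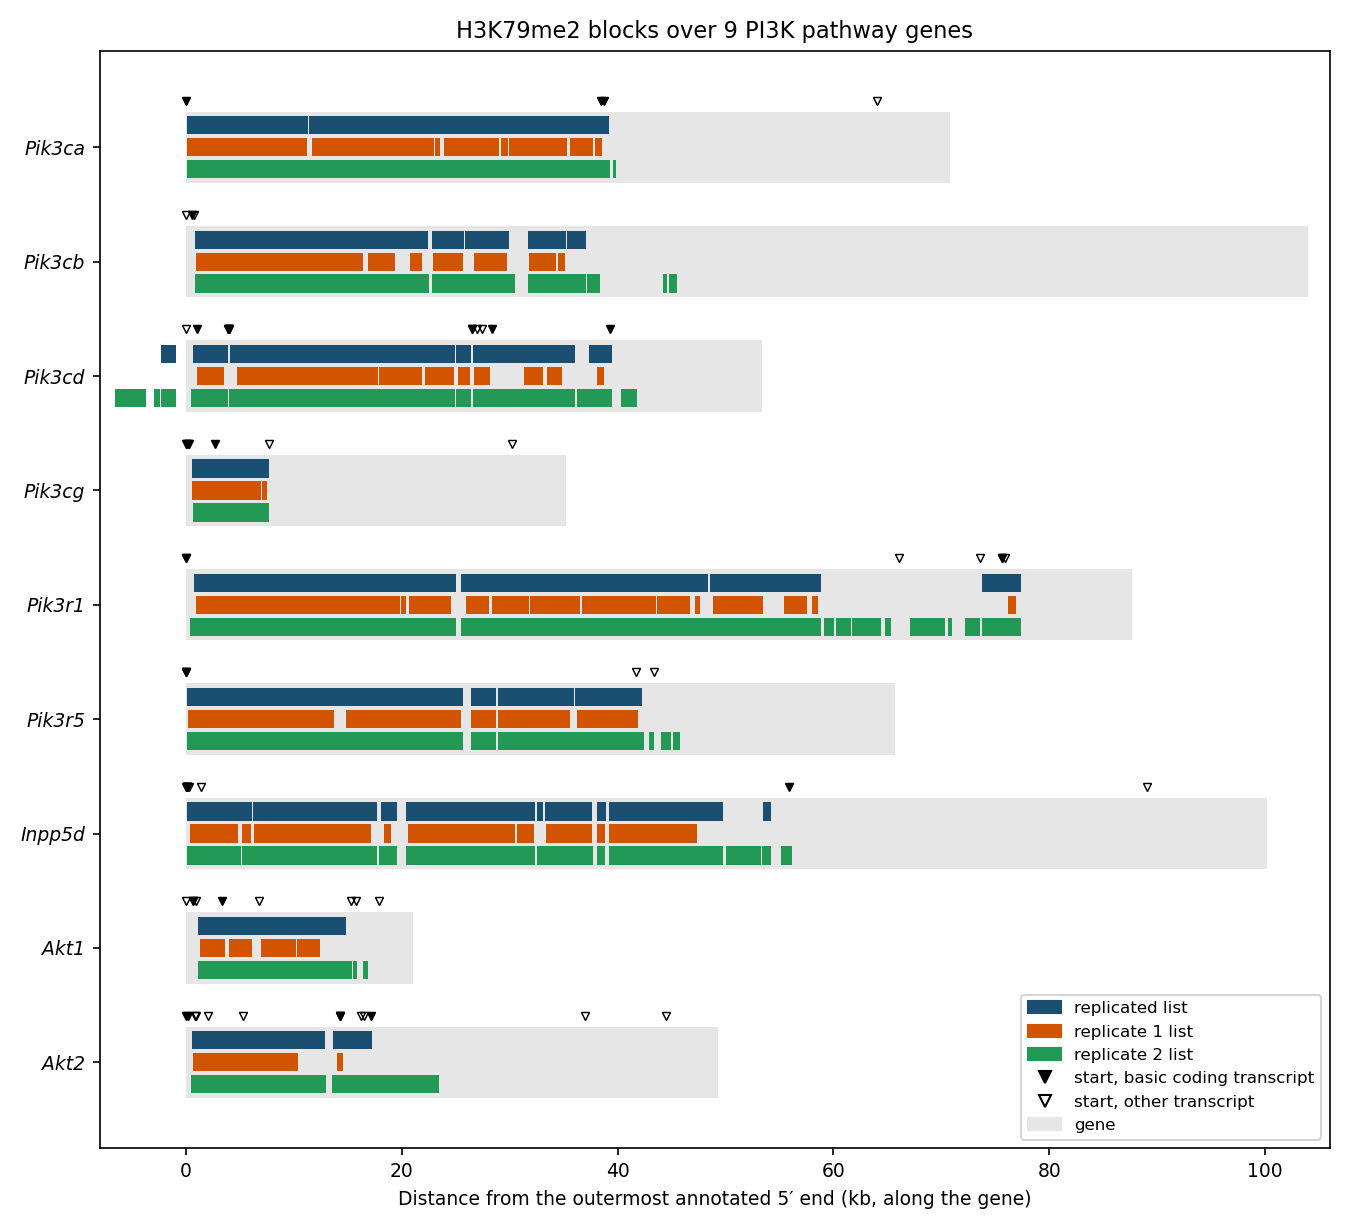
Blocks of H3K79me2 over the 9 genes, drawn to scale as distance in kb from the outermost annotated 5′ end; grey bars are the genes, coloured bars the blocks of the replicated list and of each replicate, and triangles the annotated transcript starts (filled for basic-set coding transcripts). In all 3 lists the first block inside each gene begins within 1282 bp of the outermost start and the last ends before the 3′ end of the gene; Pik3cd alone has blocks drawn upstream of its start.

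Among the catalytic subunits, Pik3cd, which encodes the leukocyte subunit p110δ, was covered over the largest share of its length. Its covered share was 53.6% in replicate 1, 74.9% in replicate 2 and 69.5% (37128 bp) in the replicated list; the gene spans 149649168 to 149702571 on the minus strand of chromosome 4 (mm10). Pik3ca, which encodes the widely expressed p110α (chromosome 3, 32397671 to 32468486, plus strand), was covered over 51.9% in replicate 1, 55.8% in replicate 2 and 55.1% (39028 bp) in the replicated list. Replicate 1's share of Pik3cd lay between the 2 shares of Pik3ca, so the replicates' ranges for these genes overlapped. Within each replicate the share of Pik3cd was the higher.

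Pik3cb, which encodes p110β, had the longest gene of the 9 at 103968 bp (chromosome 9, 99036654 to 99140621, minus strand). Blocks covered 26.9% of it in replicate 1, 35.5% in replicate 2 and 32.5% (33832 bp) in the replicated list. Pik3cg, which encodes p110γ, the subunit activated by G protein-coupled receptors (chromosome 12, 32173473 to 32208659, minus strand), had the lowest share: 19.4% in replicate 1, 20.0% in replicate 2 and 20.1% in the replicated list. Its 7085 bp formed a single block from 568 to 7652 bp downstream of the start. Replicate 1's blocks of Pik3cg began at the same base, 568 bp in, and replicate 2's block began 659 bp in, so this short domain differed little between the replicates.

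Of the regulatory subunits, Pik3r1 (chromosome 13, 101680563 to 101768217, minus strand) carried the most covered bases of the 9 genes. Blocks covered 52007 bp (59.3%) in replicate 1, 72055 bp (82.2%) in replicate 2 and 61052 bp (69.7%) in the replicated list. Pik3r5 (chromosome 11, 68432121 to 68497849, plus strand) had 38806 bp (59.0%) in replicate 1, 43636 bp (66.4%) in replicate 2 and 41259 bp (62.8%) in the replicated list. Each replicate thus placed blocks over 59.0% or more of both genes.

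Inpp5d encodes SHIP1, which removes the 5-phosphate of PIP3 and restrains the pathway in blood cells; the gene lies on chromosome 1 from 87620312 to 87720507, plus strand. Blocks covered 41442 bp (41.4%) in replicate 1, 52802 bp (52.7%) in replicate 2 and 48057 bp (48.0%) in the replicated list. Its covered bases in the replicated list were broken into 9 blocks, the most of any of the 9 genes in that list. In replicate 2 it also had the most, with 12. In replicate 1 it had 9, fewer than Pik3r1 with 13 and Pik3cd with 10.

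Akt1 and Akt2 encode kinases that carry the PIP3 signal on to growth, survival and glucose uptake. Akt1 (chromosome 12, 112653821 to 112674884, minus strand), the shortest gene at 21064 bp, had 9881 bp (46.9%) covered in replicate 1, 14961 bp (71.0%) in replicate 2 and 13665 bp (64.9%) in the replicated list. Akt2 (chromosome 7, 27591552 to 27640826, plus strand) had 10297 bp (20.9%) in replicate 1, 22387 bp (45.4%) in replicate 2 and 16021 bp (32.5%) in the replicated list. Akt2 showed the widest disagreement between the replicates: its covered bases in replicate 1 were 46.0% of those in replicate 2, whereas for Pik3cg the figure was 97.2%. The median over the 9 genes was 75.6%, and over 3416 coding genes of at least 20 kb marked in both replicates it was 60.2% (quartiles 38.9% and 77.9%). Covered bases were higher in replicate 2 in 9 of the 9 genes, near the background of 98.4% given above.

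In the replicated list the covered share ran, from highest to lowest, through Pik3r1, Pik3cd, Akt1, Pik3r5, Pik3ca, Inpp5d, Pik3cb, Akt2 and Pik3cg. Each replicate's own list gave neighbouring genes the same order, except for Akt1 against Pik3r5 and Pik3cb against Akt2. Akt1 lay below Pik3r5 in replicate 1 (46.9% and 59.0%) and above it in replicate 2 (71.0% and 66.4%). Pik3cb lay above Akt2 in replicate 1 (26.9% and 20.9%) and below it in replicate 2 (35.5% and 45.4%). The ranges spanned by the replicates overlapped except between Pik3r5 and Pik3ca, between Inpp5d and Pik3cb, and between Akt2 and Pik3cg. The authors' fold over control, used only for ranks within a list, gave another order. Inpp5d had the highest fold of the 9 in the replicated list, 30.4, which ranked 207th among 7486 coding genes with a peak, followed by Pik3r5 at 30.1 (rank 219) and Pik3cd at 27.1 (rank 512). Inpp5d ranked 104th of 6799 in replicate 1 and 225th of 8708 in replicate 2, and Pik3r5 ranked 254th and 178th in those lists. Akt2 had the lowest fold, 14.7 (rank 2976). Pik3r1 had a fold of 22.7 in the replicated list (rank 1141) and the third highest of the 9 in replicate 1, 17.8 (rank 417), where Pik3cd had 16.9 (rank 547). The order of the folds therefore differed between the lists.

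**Figure D2:**
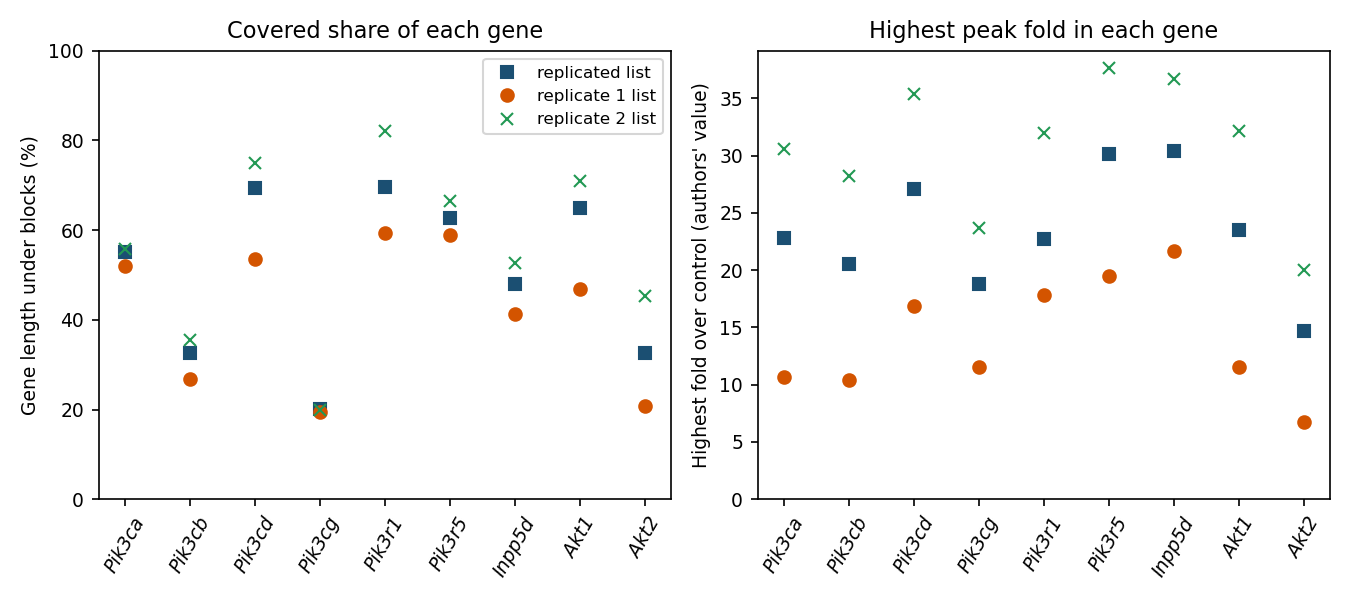
Share of each gene's length under blocks (left, %) and the highest fold over control of any peak in the gene (right, the authors' value), with 1 symbol for the replicated list and 1 for each replicate. Replicate 2 lies above replicate 1 for each gene in both panels, with the closest pair of covered shares at Pik3cg (19.4% and 20.0%); folds of different lists are not on a common scale.

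In none of the lists did a block cover the outermost GENCODE start itself: it was uncovered in 9 of 9 genes, as it was in 94.0% of 3774 other marked coding genes of at least 20 kb in the replicated list, 98.3% in replicate 1, 91.5% in replicate 2 and 93.8% in the pooled list. The first covered base lay closest to the outermost start in Pik3r5, at 70 bp in the replicated list (142 bp in replicate 1 and 46 bp in replicate 2), Pik3ca, at 77 bp (131 and 46 bp), and Inpp5d, at 83 bp (387 and 49 bp). It lay at 510 bp in Akt2, 568 bp in Pik3cg, 606 bp in Pik3cd, 724 bp in Pik3r1, 859 bp in Pik3cb and 1148 bp in Akt1. The distances depend on the annotation for some genes. The outermost RefSeq start of Pik3cd lies 3863 bp inside the gene and was itself covered in the replicated list and in replicate 2, though not in replicate 1, where the next block began 862 bp further on. The RefSeq start of Pik3ca lies 606 bp upstream of the outermost GENCODE start, which puts the first covered base 683 bp from it. In Pik3cb the first RefSeq start lies 410 bp inside the gene, 449 bp before the block, and in Akt1 the CpG-rich basic-set start at 608 bp lies 540 bp before the block.

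As a mean over the 9 genes, coverage was nearly complete just beyond the first kb and stayed higher further in than in other marked genes. Between 1 and 2 kb the 9 genes had a mean of 98.4% of bases covered in the replicated list, against 90.0% in the 3774 other marked genes of at least 20 kb. Between 5 and 10 kb the means were 94.5% and 63.7%, and between 10 and 20 kb they were 78.2% and 41.4%. Replicate 1 gave 64.4% for the 9 genes and 31.4% for the others between 10 and 20 kb, and replicate 2 gave 83.1% and 43.9%. Not every gene followed the mean. Pik3cg had no covered base between 10 and 20 kb in any of these lists. Cover there also stopped short in Akt1 and Akt2. In the replicated list the last covered base lay at 14812 bp in Akt1 and at 17246 bp in Akt2. Replicate 1 had less cover in both. There the first block of Akt2 ended at 10366 bp and the second ran from 13999 to 14572 bp, and the last covered base of Akt1 lay at 12432 bp.

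**Figure D3:**
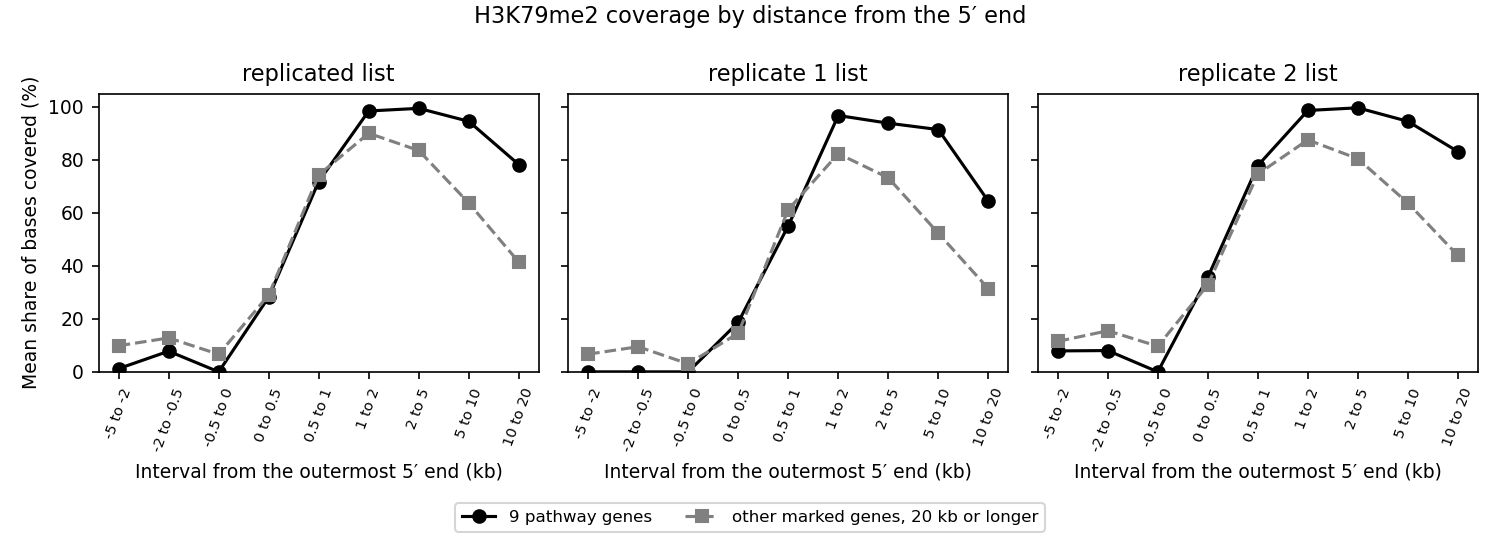
Mean share of bases covered (%) in intervals from 5 kb upstream to 20 kb downstream of the outermost 5′ end, for the 9 pathway genes (solid) and the other marked coding genes of at least 20 kb (dashed), in the replicated list and each replicate. The curves lie close together between 0 and 1 kb, and beyond it the 9 pathway genes stay higher, at 78.2% against 41.4% between 10 and 20 kb in the replicated list.

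Upstream of the outermost start only Pik3cd had any covered base within 5 kb. A block of 1384 bp lay from 2332 to 949 bp upstream of it in the replicated list, and replicate 2 placed blocks from 2950 to 2425 bp and from 2356 to 917 bp upstream, with a further one from 6537 to 3750 bp. Replicate 1 had no covered base there. In the replicated list the 9 genes had a mean of 1.23% of bases covered between 5000 and 2000 bp upstream, against 9.86% in the 3774 other marked genes of at least 20 kb. Between 2000 and 500 bp upstream the means were 7.79% and 12.8%, and in the last 500 bp they were 0% and 6.62%. The share of other genes with any covered base upstream was not computed, and the difference was not tested. No other coding gene overlaps any of the 9 genes, and the only coding gene whose outermost start lies within 5 kb of one of theirs is Zbtb42, on the opposite strand and 3944 bp from the start of Akt1, which had no covered base.

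Within the genes, the first intron of the main coding transcript was covered over a larger share than the remaining introns in 9 of 9 genes, as it was in 91.0% of 3706 other marked genes of at least 20 kb. In Pik3ca the first intron of 38329 bp was covered over 99.8% in the replicated list, and the other introns over 1.29%. Pik3r5 gave 97.7% of a first intron of 41532 bp and 2.52% of the rest, and Akt2 gave 94.6% of 16743 bp and 0.161% of the rest. The last covered base of these 3 genes lay 730, 615 and 176 bp past the end of the first intron. Replicate 1 kept the domain of Pik3ca (132 bp past) and of Pik3r5 (227 bp past) within 1 kb of that border, whereas that of Akt2 ended 2498 bp before it, and in replicate 2 the last covered base lay further on, 1436, 4125 and 6368 bp past it in Pik3ca, Pik3r5 and Akt2. Of other marked genes of at least 20 kb, 21.2% had their last covered base within 1 kb of the border, so that 3 of 9 is no result about these genes.

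The remaining genes were covered well beyond the first intron. In Pik3r1, 71.9% of the bases in introns after the first lay under blocks of the replicated list, including most of the second intron of 47583 bp, and in Akt1 73.4% did. The values were 47.2% in Pik3cd, 40.6% in Inpp5d, 20.4% in Pik3cb and 11.4% in Pik3cg.

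Several of these genes have annotated starts far inside the gene, and the blocks were set against each of the 72 distinct starts. In the replicated list 30 of the 72 starts (41.7%) lay under a block, against 15.1% of the starts of other marked genes of at least 20 kb. The counts were 14 of 72 (19.4%) in replicate 1, against 7.80%, and 38 of 72 (52.8%) in replicate 2, against 18.7%. The covered share of the 9 genes was also higher, with the medians of 55.1% and 25.4% given above, and its part in these counts was not tested.

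Pik3r1 makes the adaptor p85α from its outermost start and shorter forms, p55α and p50α, from starts inside the gene. The transcript from the outermost start encodes 724 residues, and the basic-set transcript that starts 75587 bp downstream encodes 454. Blocks of the replicated list ran from 724 to 58833 bp, and after a long stretch without cover a separate block ran from 73772 to 77358 bp, over this inner start. Replicate 2 had a block from 73755 to 77377 bp, and between 58840 bp and this block it had several shorter ones. In replicate 1 nothing was covered between 58582 bp and a block from 76147 to 76951 bp, which began 560 bp downstream of the inner start. A block at or next to the inner start was therefore present in the replicated list and in both replicates, though replicate 1 did not cover the start itself. It was set apart by a long uncovered stretch in the replicated list and in replicate 1. In replicate 2 a gap of only 181 bp lay before it, and in the pooled list a gap of 275 bp. The RefSeq promoter of that inner start is shown with CG in capitals for comparison with the outer one above.
Pik3r1 inner start, chr13:101692581-101692880, minus strand: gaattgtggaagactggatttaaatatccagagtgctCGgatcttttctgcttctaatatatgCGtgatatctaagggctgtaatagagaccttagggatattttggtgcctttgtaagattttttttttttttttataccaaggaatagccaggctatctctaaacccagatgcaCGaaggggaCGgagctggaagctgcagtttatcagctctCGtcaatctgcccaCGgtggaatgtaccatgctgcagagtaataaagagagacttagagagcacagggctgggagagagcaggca
It holds 6 CG dinucleotides, against 34 at the outer start, and the whole 300 bases lay under blocks in the replicated list and in replicate 2, but no base did in replicate 1.

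Akt2 also had a separate block over inner starts. This second block in the replicated list, from 13591 to 17246 bp, held 6 annotated starts between 14245 and 17110 bp, 3 of them of basic-set coding transcripts. In replicate 1 the second block measured 574 bp, from 13999 to 14572 bp, and held the starts at 14245, 14265 and 14306 bp. In replicate 2 the second block ran from 13547 to 23438 bp. All 3 lists left bases uncovered just before it.

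Inpp5d has a basic-set start 55927 bp inside the gene, whose transcripts encode up to 928 residues against 1191 from the outermost start; a shorter SHIP1 without the SH2 domain is known from stem cells in mouse. In the replicated list no block covered this start, and the nearest ended 1739 bp before it. In replicate 1 the nearest ended 8586 bp before it. In replicate 2 a block of 940 bp from 55181 to 56120 bp covered the start, with 194 bp of cover after it. The replicates thus disagreed at this start.

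Pik3cd has 13 distinct starts, and the blocks broke at some of them. The domain of the replicated list was interrupted from 3873 to 4030 bp, a gap of 158 bp that holds 4 starts, and from 26426 to 26586 bp, a gap of 161 bp that holds 2. In the first gap the start at 3873 bp lies 1 bp past the block edge and was covered in replicate 2. Another start, at 3863 bp, lies inside the block just before that edge, so the count of starts in this gap depends on a few bases. Replicate 2 had gaps of 100 bp and 114 bp at these places, with 2 starts in each. Replicate 1 had a gap of 343 bp at the second place, with the same 2 starts, and at the first its blocks ended at 3562 bp and resumed at 4725 bp. The sequences of both gaps in the replicated list (GRCm38, minus strand) are shown 5′ to 3′ with the annotated first bases of transcripts in capitals.
Gap at 3873 bp, chr4:149698541-149698698: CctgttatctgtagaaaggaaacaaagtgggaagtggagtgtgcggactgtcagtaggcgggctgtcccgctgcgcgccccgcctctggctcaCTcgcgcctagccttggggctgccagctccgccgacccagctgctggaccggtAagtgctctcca
Gap at 26426 bp, chr4:149675985-149676145: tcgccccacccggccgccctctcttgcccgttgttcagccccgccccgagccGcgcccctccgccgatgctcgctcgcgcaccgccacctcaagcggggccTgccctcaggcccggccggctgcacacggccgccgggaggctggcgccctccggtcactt
The first holds 11 CG dinucleotides and the second 22, and the start at 26527 bp, which lies in the second, was the only CpG-rich one among the basic-set coding starts of Pik3cd (observed over expected 0.62). Of 17 gaps under 500 bp within the 9 genes, these 2 held an annotated start (11.8%), compared with 1.61% of 2913 such gaps in other marked genes of at least 20 kb. The share was 3.03% of 33 gaps in replicate 1 and 10.3% of 29 gaps in replicate 2, against 0.716% and 1.23% in other genes. These gaps were looked at after their positions had been seen, and the difference was not tested.

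**Figure D4:**
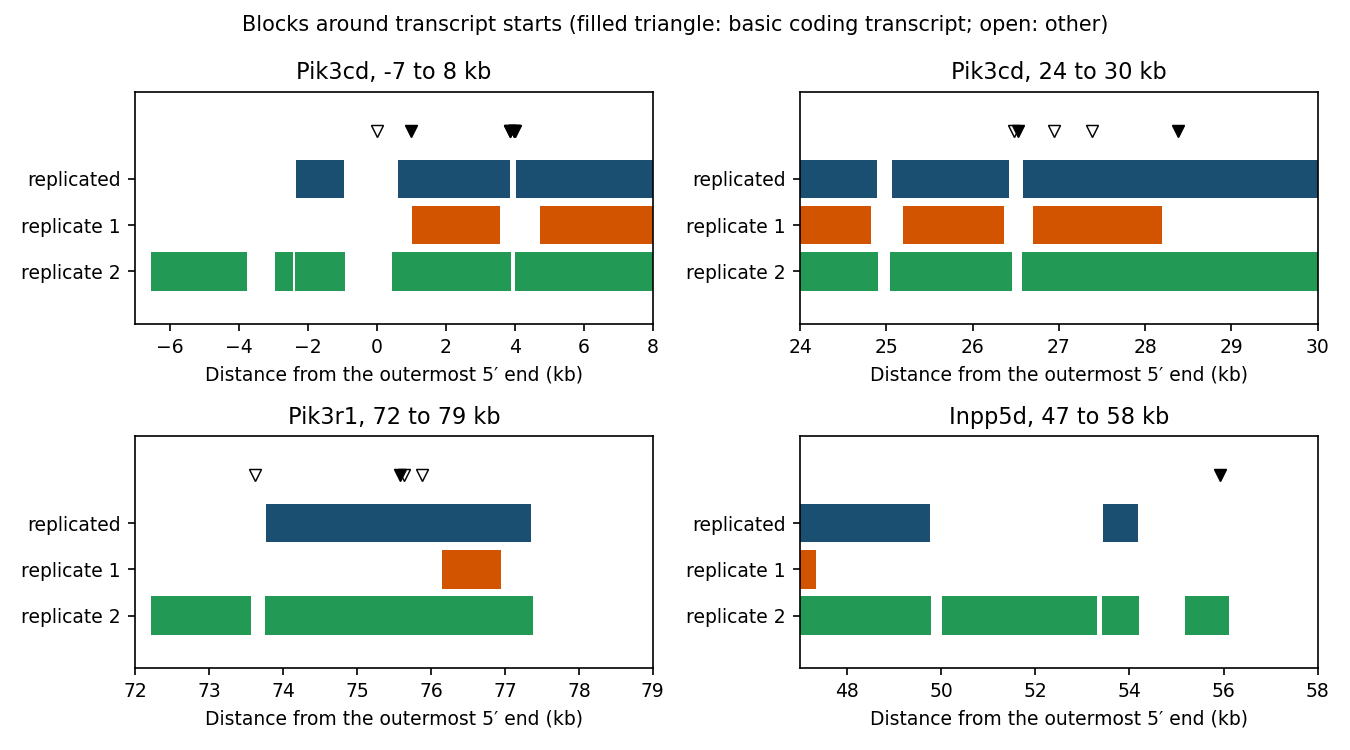
Blocks around starts of Pik3cd (both top panels), Pik3r1 (bottom left) and Inpp5d (bottom right) in the replicated list and in each replicate, as distance in kb from the outermost 5′ end; triangles are annotated starts (filled for basic-set coding transcripts). The blocks of Pik3cd break at the starts near 3873 bp and 26478 bp, a block lies at or next to the inner starts of Pik3r1, and the inner start of Inpp5d at 55927 bp is covered only in replicate 2.

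In the wider pathway, a list of 101 other genes by role, 72 (71.3%) were marked in the replicated list, against 30.3% of all coding genes. The counts were 61 (60.4%) in replicate 1, against 27.2%, and 81 (80.2%) in replicate 2, against 35.6%. Of coding genes of at least 20 kb, 37.2% were marked in the replicated list, 33.7% in replicate 1 and 42.4% in replicate 2. The wider list holds genes on both sides of that length, and the background was not matched to it for length. Among the other class I proteins 2 of 5 were marked. Pik3ap1, which encodes the adaptor BCAP, had 79719 bp covered, and Pik3r6, which encodes the other partner of p110γ, had 14516 bp. The regulatory subunit genes Pik3r2 and Pik3r3 and the inhibitor gene Pik3ip1 were without cover in the replicated list, and Pik3r2 had 1063 bp in replicate 2. Of class II and III kinases and their partners 3 of 5 were marked: Pik3c2a had 37081 bp, Pik3r4 3960 bp and Pik3c3 3666 bp, while Pik3c2b and Pik3c2g had none. Pik3r4 had no covered base in replicate 1.

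Of 20 phosphoinositide phosphatase genes 14 were marked. Mtmr3 had 63633 bp covered in the replicated list and Inpp4a had 56082 bp. Inpp4b, Inpp5a and Inpp5j were without cover in the replicated list, although Inpp5a had 29468 bp in replicate 2. Of 11 genes of phosphatidylinositol and PIP kinases 10 were marked, led by Pip4k2a (107039 bp), Pip5k1a (19668 bp) and Pi4k2a (16682 bp), and Pip5k1b was not, with 1339 bp.

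Of 11 upstream adaptor genes 9 were marked. The docking protein gene Gab2 had 135851 bp, the ubiquitin ligase gene Cbl 63249 bp and Grb2 62511 bp, while Irs1 and Gab1 had none, Gab1 with 14061 bp in replicate 2. Of 11 downstream kinase and phospholipase genes 7 were marked, with 95227 bp in Gsk3b, 77067 bp in Tec and 60346 bp in Sgk3. Pdpk1, the kinase that phosphorylates Akt, was unmarked at its outermost start, yet blocks covered 30184 bp of it and it was marked from an inner start, as was Sgk1 with 3242 bp.

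Of 14 genes of the mTOR complexes and their regulators 9 were marked, with 96589 bp in Rptor, 30208 bp in Rheb and 28360 bp in Rictor; Mlst8, Deptor and Tsc2 had none in the replicated list, and Mlst8 had 1045 bp in replicate 2. Of 10 Akt targets and brakes 6 were marked, with 87286 bp in Foxo3, 8474 bp in Phlpp1 and 3093 bp in Phlpp2, while Foxo4, Tbc1d4 and Trib2 had none under the replicated list. Phlpp1 had no covered base in replicate 1 and 63340 bp in replicate 2, and Tbc1d4 had 30116 bp in replicate 2. Of 14 genes for exchange factors, GTPase-activating proteins and other proteins that bind PIP3, 12 were marked, with 133622 bp in Vav3, 69984 bp in Prex1 and 55482 bp in Cyth1, and Prex2 and Arap3 were not, Arap3 with 793 bp in replicate 2.

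**Figure D5:**
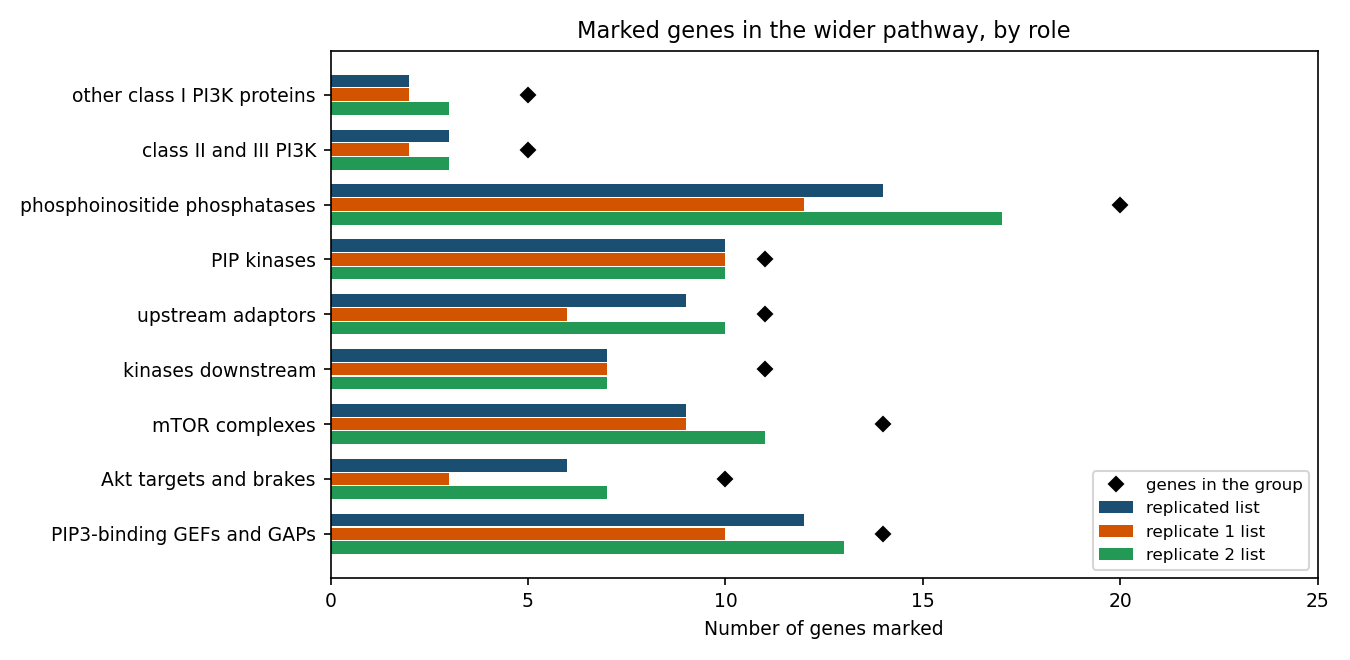
Number of genes marked in each role of the wider pathway list, in the replicated list and in each replicate, with diamonds at the number of genes in the group. PIP kinases (10 of 11) and downstream kinases (7 of 11) have the same count in all 3 lists, while Akt targets and brakes have 3 in replicate 1 and 7 in replicate 2.

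The coding genes most like the 3 longest covered of the 9 were found by the summed difference in percent covered in replicate 1 and replicate 2, over these 2 samples, among genes of a length within 20%. For Pik3r1 they were Arid1a (1.65 percentage points) and Eif3h (5.45), for Inpp5d Cdk17 (1.32) and Rufy3 (1.49), and for Pik3r5 Smad2 (0.551) and Piezo1 (1.47).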

How the data were processed

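H3K79me2 ChIP-seq peaks from 2 replicates were used. Per the deposited text notes, the lists on mm10 were made from each replicate alone, from both (pooled) and as a replicated list; how reads were aligned, how peaks were called and what made a peak replicated is information not given in the sources used here. The fold of each peak over the control, a ratio, was computed by the authors with a normalization not given in the sources used here.

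Touching or overlapping peaks of a list were joined into blocks (Python 3.11.15, numpy 2.4.6) and set against GENCODE M21 on GRCm38, the same build as mm10, for coding genes of the autosomes, X and Y. Sequences were read with pysam 0.24.0. The main coding transcript is the basic-set one with the longest coding sequence. No test was run: there is 1 group, and peaks carry no strand and no counts. The code was tested on simulated peaks with known cover. Genes named are the 9 genes, neighbours, the markers and, for each role, no more than 3 marked genes, those covered over most bases, and the first 3 unmarked of the list, with the 2 genes most like each of the 3 longest covered. Some genes that this rule names are not reported here. The wider list held 102 symbols, of which 101 matched. The members and lists were chosen with earlier results of these data known.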

Additional observations from a re-analysis of the deposited data

How the results depend on the processing

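All 9 genes were marked in each replicate's list, with only the peaks of at least median fold and with a minimum of 1000 bp. Marking in the pooled list, with a minimum of 1 bp, with a window of 5 kb and at any annotated start could not come out otherwise. The pooled list repeats the blocks of the replicated list in these genes, and the other settings only loosen the main rule. With a window of 1 kb 7 of the 9 were marked, and Pik3cb and Akt1 were not. In the wider list of 101 genes, between 53 (window of 1 kb) and 81 (without replicate 1) were marked. The share of all coding genes was not computed under the changed fold, minimums or windows. Counts under those settings therefore cannot be read against a background. The number of starts under a block, 30 of 72, ranged from 14 without replicate 2 to 38 without replicate 1. It was 13 of 29 (44.8%) for basic-set coding transcripts alone, where fewer starts are counted, against 13.3% in other marked genes of at least 20 kb. With a block within 1 kb downstream, a looser rule, it was 60 of 72, and no background share was computed under that rule. Covered bases of the 9 genes were compared with the SD of the 2 replicates. They moved by less than 1 SD with the pooled list, the peaks of at least median fold, blocks of at least 1 kb and without replicate 1. Without replicate 2 they moved by more than 1 SD in 4 of 9 genes. The SD comes from the same 2 replicate values that 2 of these settings use, and the pooled list repeats the replicated blocks. Small moves were therefore largely fixed in advance and are no measure of robustness. Measured from the outermost RefSeq start, an alternative chosen after seeing the data, the first covered base of Pik3cd lay at -3257 bp, that is upstream, because RefSeq starts that gene 3863 bp further in. No paired analysis was possible because there is 1 group. Depth is unknown, so no statement is made that an uncovered base or unmarked gene lacked the modification.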
